A study of Homo sapiens with 24 samples.

Results

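HT29 is an established human colorectal carcinoma cell line with an inactivated *APC* gene, and the 2 clones compared here, KO 28 and KO 38, are HT29 derivatives in which both alleles of *CTNNB1* had been inactivated by CRISPR/Cas9 deletion of an exon. *CTNNB1* encodes β-CATENIN, the transcriptional coactivator of the WNT pathway. The comparison took every library labelled with either clone, 4 of the 24 libraries of the series, and all 58051 gene identifiers, of which 15420 had a value high enough to test. Every clone had a library from round A and another from round B, and KO 28A stands for the library of KO 28 from the former. Pairs of values below are those of rounds A and B in that order. Both clones were grown in the same untreated medium and carried the same genotype, so that the comparison asked how far a pair of β-CATENIN-deficient derivatives of one line differed from each other. The HT29 clones WT 11 and WT 40, which went through genome editing and cloning with intact *CTNNB1*, gave 4 further libraries as a reference. Each group was thus 1 clone, and the p-values below measure the difference between these 2 clones against the spread between their rounds, not against the spread among HT29 knock-out clones in general.

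Values are normalized counts, meaning the reads of a gene divided by 1 size factor per library. The 4 libraries held from 24832650 to 28414707 reads assigned to genes. A gene was called when its adjusted p was under 0.05 and its log2 difference was over 1 in the same direction in the mean and in each round. The clones were compared with limma, and p-values were adjusted by the Benjamini-Hochberg method over all tested genes. Fitted log2 differences are on the scale of log2 of the value plus 1, while folds are ratios of normalized counts. Where both libraries of the lower clone held 3 reads or fewer, no fitted difference is given, and the fold is a bound against 3 reads per library or, with 1 to 3 reads in a library, a ratio with its 95% counting interval, which covers counting error only.

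KO 38B stood apart from the other HT29 libraries. Among genes with a mean of at least 100 in KO 38, 1102 were more than 1 log2 unit higher in KO 38B than in KO 38A and 866 were more than 1 unit lower, which was 18.0% of 10933 genes. The corresponding share was 0.298% in KO 28, 0.572% in WT 11 and 0.333% in WT 40. The rounds of KO 38 differed along transcript length. In the fifth of genes with the shortest transcripts, KO 38B was higher than KO 38A by a median of 0.73 log2 units, and in the fifth with the longest its median difference was −0.51. The other clones had smaller slopes between their rounds. These medians, round B minus round A, were 0.28 and −0.32 in WT 11, 0.05 and −0.08 in WT 40, and −0.15 and 0.16 in KO 28. KO 38A showed no such slope against the mean of KO 28, with medians from −0.08 to 0.02 over the length classes, whereas those of KO 38B ran from 0.75 in the shortest to −0.56 in the longest. *MRPL12*, a mitochondrial ribosomal protein gene, was at 549 and 2841 in KO 38A and 38B, and *POLR2I*, which encodes a small subunit of RNA polymerase II, was at 386 and 1911. In the other direction, *SEC24C*, a coat component of secretory vesicles, was at 1611 and 152 and *IGF2BP3*, an RNA-binding protein gene, at 1953 and 211. None of these 4 genes was called between the clones. A fit without KO 38B was run as an alternative.

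The targeted gene was low in both clones. *CTNNB1*, on chromosome 3 from 41236232 to 41301587 of GRCh37, was at 256 and 293 in KO 28 and 313 and 337 in KO 38, against 5883 to 6113 in the 4 WT libraries. All 4 KO libraries were below every WT library, and the clones differed by 0.25 log2 units (standard error 0.24, adjusted p = 0.549). Reads outside the deleted exon are counted too, so that these values are a transcript level and not a measure of the deletion. Colorectal epithelial markers were present in both clones, with *KRT8*, a keratin of simple epithelia, at 285696 and 253314 in KO 28 and 293579 and 412356 in KO 38, and *LGALS4*, a galectin of the gut epithelium, at 32433 and 27378 in KO 28 and 30874 and 34040.5 in KO 38. The gut transcription factor *CDX2* was at 15.1 and 2.94 in KO 28 and 19.9 and 7.78 in KO 38, close to the limit for testing in all 4 libraries.

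Of the 15420 genes tested, 881 differed between the clones, or 5.71%. Of these, 432 were higher in KO 28 (2.8% of the genes tested) and 449 were higher in KO 38 (2.91%). Many differences were large, since 146 genes higher in KO 28 and 164 higher in KO 38 differed more than 16-fold on the fitted scale. In 80 and 98 of the called genes, respectively, both libraries of the lower clone held 3 reads or fewer. The plot of both rounds shows that the called genes lay along the diagonal, while the genes that were not called spread further in round B. Without a test, the libraries of the clones did not overlap in 59.9% of all tested genes. Left out in turn, KO 28A, 28B, 38A and 38B changed the number of called genes to 365, 376, 4652 and 1858, or 2.37%, 2.44%, 30.2% and 12.0% of those tested. In such a fit 1 clone is a single library, which is assumed to vary like the rounds of the other clone. Without KO 38B or KO 38A the spread thus came from the close rounds of KO 28 alone. When KO 38B was left out, 987 genes were higher in KO 28 (6.4%) and 871 higher in KO 38 (5.65%), and 872 of the 881 genes (99.0%) were among them. Removing the trend of each library with transcript length and GC content, an alternative chosen after seeing the data, kept 849 of the 881 genes (96.4%). Of the tested genes, 414 reached a value of 10 in KO 28 libraries alone and 462 in KO 38 libraries alone, so that these passed the filter on low values through the clone in which they were high. Where a member of a list below passed in this way, it had to be higher in that clone.

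The difference between the KO clones was not the only one among HT29 clones. WT 11 and WT 40, tested in the same way on libraries that the KO comparison did not use, differed in 1436 of 15102 genes (9.51%). Which pair had more called genes depended on the estimate of spread. With all 8 HT29 libraries sharing one spread, 1622 genes were called between the KO clones and 1069 between the WT clones. In DESeq2 the counts were 1381 and 1244. Among the 14568 genes tested in both comparisons, 337 were called in both. This was 46.7% of the 721 genes called between the KO clones and 26.0% of the 1297 called between the WT clones, beside 8.90% of all these genes called between the WT clones. Each KO clone was also set against the range of the 4 WT libraries. Of the 432 genes higher in KO 28, 174 were more than 1 log2 unit above every WT library in both KO 28 libraries, and 127 were more than 1 unit below every WT library in both KO 38 libraries. Of the 449 genes higher in KO 38, 225 were above the WT range in KO 38 and 76 below it in KO 28. Both KO clones lay outside the WT range on the same side in 11 of the 432 genes and in 29 of the 449 genes. Among all tested genes, 3.88% were above the WT range in KO 28 and 4.20% in KO 38, while 0.95% were below it in KO 28 and 1.51% in KO 38. Both KO clones lay outside it on the same side in 1.57% of all tested genes. The called genes were picked by the difference between the KO clones. Larger shares of them above or below the WT range thus follow in part from that choice.

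Of all the lists, that of interferon-stimulated genes held the most called members. Interferons are secreted proteins that cells release on sensing foreign or misplaced nucleic acid. They bind receptors on the cell surface, whose kinases *JAK1* and *TYK2* activate a transcription factor complex that holds *STAT2* and *IRF9*. The complex binds a DNA element, the interferon-stimulated response element (ISRE), in the promoters of interferon-stimulated genes. Promoters are shown here because most of the called interferon-stimulated genes with a promoter in the table held the core of this element. The core of the ISRE was searched as GAAA, any 2 bases and GAAA again. Both strands were searched, matches that overlap each other included, in the 300 bases around the start site (250 before to 50 after) of 27305 RefSeq promoters of GRCh38.p14. At least 1 match was present in 3.65% of all promoters, in 17 of the 25 called interferon-stimulated genes with a promoter in the table (68.0%), in 2 of 5 that were not called (40.0%), in 20 of 283 promoters of other genes higher in KO 28 (7.07%) and in 7 of 312 promoters of genes higher in KO 38 (2.24%). A match is a run of letters and not a measured binding site. The element is a feature of interferon-stimulated genes at large, so the shares of the listed genes describe the list and do not bear on the difference between the clones. In the stretches below, upstream of the start site of 6 genes called higher in KO 28, capitals mark the matches. They come from chr10:89392477-89392559 (*IFIT1*, plus strand), chr14:94110598-94110680 (*IFI27*, plus strand), chr4:168318766-168318870 (*DDX60*, minus strand), chr1:27672246-27672378 (*IFI6*, minus strand), chr1:78620254-78620414 (*IFI44L*, plus strand), chr11:320861-320942 (*IFITM3*, minus strand) and are printed in the direction of the gene.
IFIT1: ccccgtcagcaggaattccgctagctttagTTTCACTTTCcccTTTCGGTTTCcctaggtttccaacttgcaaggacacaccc
IFI27: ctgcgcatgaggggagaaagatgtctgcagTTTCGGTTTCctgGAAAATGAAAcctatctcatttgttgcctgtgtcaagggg
DDX60: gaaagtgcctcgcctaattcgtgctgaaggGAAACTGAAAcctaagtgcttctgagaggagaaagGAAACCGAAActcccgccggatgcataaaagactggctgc
IFI6: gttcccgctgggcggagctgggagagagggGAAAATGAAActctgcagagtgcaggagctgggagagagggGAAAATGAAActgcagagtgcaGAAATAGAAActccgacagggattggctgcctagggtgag
IFI44L: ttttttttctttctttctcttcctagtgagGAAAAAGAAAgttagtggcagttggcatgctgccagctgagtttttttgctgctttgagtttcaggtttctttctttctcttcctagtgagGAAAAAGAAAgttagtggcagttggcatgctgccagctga
IFITM3: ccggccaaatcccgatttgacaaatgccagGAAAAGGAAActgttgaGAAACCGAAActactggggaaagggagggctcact

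Of 38 interferon-stimulated genes tested, 30 were higher in KO 28 and none was higher in KO 38, beside 2.8% and 2.91% of all genes. The count was 24, 28, 32 and 34 with 1 library left out, in the order KO 28A, 28B, 38A and 38B, an order kept for the lists below. These 4 counts stand beside 2.37%, 2.44%, 30.2% and 12.0% of all genes, and so do the bracketed counts of the other lists. All 38 listed genes could be tested, 7 of them through KO 28 libraries alone. All 38 had the higher mean in KO 28, and in 36 of them both KO 28 libraries were above both KO 38 libraries. The median log2 difference, KO 38 minus KO 28, was −3.93 for the list (−3.86 with genes at the read limit set to their bound) and −0.02 for all tested genes. KO 28 was the clone that departed from the WT clones, with both of its libraries above all 4 WT libraries in 37 of the 38 genes. The mean of KO 38 lay within the WT range in 15 genes, above it in 10 and under it in 13. Between the rounds of KO 28, round A was the higher one in 36 of the 38 genes. Whether a part of the cells in KO 28 held much of these transcripts or all cells held some cannot be told apart in bulk RNA.

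Among these genes, which include restrictors of viruses, *IFI44L* was at 2025 and 1199.6 in KO 28 and 0 and 0 in KO 38. KO 38 thus held no read of this gene in either round, and KO 28 was at least 479-fold higher (adjusted p = 0.00316). *RSAD2*, which encodes viperin, an enzyme that makes a chain-terminating nucleotide, was at 1103 and 573 in KO 28 and 1.90 and 0 in KO 38, and KO 28 was 762-fold (counting interval 211 to 6297) higher. Its neighbour *CMPK2*, a nucleotide kinase gene that overlaps it on the other strand, was at 1489.6 and 987 in KO 28 and 1.90 and 5.19 in KO 38. The libraries were not stranded, so that reads of these overlapping genes cannot be separated where they overlap. *MX1*, a dynamin-like GTPase, was at 4264 and 2691 in KO 28 and 25.6 and 35.0 in KO 38 (log2 difference 6.77, standard error 0.34, adjusted p = 0.00529). *OAS2*, which makes oligoadenylates to activate RNase L, was at 5960.5 and 3854 in KO 28 and 26.6 and 28.5 in KO 38 (log2 difference 7.39, standard error 0.30, adjusted p = 0.00343). The RNA-binding protein gene *IFIT1* was at 5959 and 3051 in KO 28 and 69.2 and 95.9 in KO 38 (log2 difference 5.69, standard error 0.41, adjusted p = 0.00756), and the mitochondrial protein gene *IFI27* reached 13386 and 9304 in KO 28, against 227 and 331 in KO 38. For each of these genes the lowest KO 28 library was above the highest KO 38 library and above the highest WT library.

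Sensors and regulators of the response were compared next. *STAT2* was at 1133 and 875 in KO 28 and 698 and 549.7 in KO 38 (adjusted p = 0.214) and was not called. The RNA helicases *RIGI* and *IFIH1*, which sense viral RNA in the cytosol, were 8.15-fold and 7.58-fold higher in KO 28 (adjusted p = 0.0118 and 0.00968). *USP18*, which removes *ISG15* from proteins and dampens the receptor, was at 760.4 and 487 in KO 28 and 116 and 89.5 in KO 38 (log2 difference 2.57, standard error 0.33, adjusted p = 0.0237). *ISG15* itself, a ubiquitin-like modifier, was at 18626 and 10482 in KO 28 and 1457 and 5335 in KO 38. Both KO 28 libraries were above both KO 38 libraries. The rounds of KO 38 lay far apart, and the gene was not called (adjusted p = 0.142). Neither were *IRF7*, *OASL* and *IRF9*, with adjusted p = 0.0904, 0.0623 and 0.156. These 4 genes were called in the fit without KO 38B, where KO 38 was 1 library and the spread came from KO 28 alone.

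The ligands, receptors and sensors of the pathway were looked up after the values of the target genes had been seen, and their levels are given as a description. Transcripts of interferons themselves were few. *IFNB1* (interferon β) was at 6.03 and 8.81 in KO 28 and 0.949 and 0 in KO 38, and *IFNL1*, *IFNL2* and *IFNL3* (interferons λ) were between 1.96 and 14.1 in the KO 28 libraries and at 0 in both KO 38 libraries. None of these 4 genes reached the limit for testing, the λ genes are near-identical copies that can share reads, and no WT library held more than 0.988 of any of them. The receptor chain *IFNAR1* was at 1208 and 1207 in KO 28 and 1077 and 1093 in KO 38 (adjusted p = 0.657), and the kinases *JAK1* and *TYK2* were at 1929 and 1838 in KO 28 and 2774 and 1418 in KO 38 and at 874 and 995 in KO 28 and 1039.6 and 822 in KO 38 (adjusted p = 0.913 and 0.977). The libraries of the clones overlapped for *JAK1* and *TYK2* but not for *IFNAR1*. The sensor *STING1*, which relays the presence of cytosolic DNA, was at 713 and 515 in KO 28 and 25.6 and 36.3 in KO 38, against 279 to 342 in WT libraries (log2 difference 4.27, standard error 0.34, adjusted p = 0.00863). The endosomal RNA sensor *TLR3* was at 376 and 362 in KO 28 and 30.4 and 5.19 in KO 38 (log2 difference 4.73, standard error 0.81, adjusted p = 0.0458), against 40.1 to 132 in WT libraries. For both sensors KO 28 was above and KO 38 was below the WT range. *CGAS*, which makes the messenger that activates *STING1*, was at 611 and 617 in KO 28 and 602 and 672 in KO 38 (adjusted p = 0.900).

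Genes of MHC class I antigen presentation, which load peptides on HLA molecules for T cells, were called in 4 of 16, all higher in KO 28 (2, 3, 7 and 9 with 1 library left out), and the median log2 difference was −1.15. *PSMB9*, an immunoproteasome subunit, was at 436 and 216 in KO 28 and 4.74 and 9.08 in KO 38 (log2 difference 5.34, standard error 0.53, adjusted p = 0.0130). The overlapping peptide transporter gene *TAP1* was at 666 and 499 in KO 28 and 82.5 and 48.0 in KO 38 (log2 difference 3.17, standard error 0.37, adjusted p = 0.0182). Of the 16 genes, 2 reached the limit for testing in KO 28 alone, *PSMB9* among them. The coactivator gene *NLRC5* and the transcription factor gene *IRF1* were 33.2-fold and 2.39-fold higher in KO 28. The light chain gene *B2M* was at 26173 and 20270.3 in KO 28 and 6691 and 13749 in KO 38 (adjusted p = 0.168) and was not called. It was called without KO 38B, with the spread taken from KO 28 alone. Of the 12 chemokine and cytokine genes tested, the interferon-induced chemokines *CXCL10* and *CXCL11* were higher in KO 28, with 149.9 and 112 in KO 28 and 3.79 and 0 in KO 38 for *CXCL11* (log2 difference 5.90, standard error 0.86, adjusted p = 0.0307). The alarmin gene *IL33* was at 0 and 0 in KO 28 and 67.3 and 28.5 in KO 38, and KO 38 was at least 16.1-fold higher. Of the 12, 3 reached the limit for testing in KO 28 alone, *CXCL11* among them, and 3 in KO 38 alone, *IL33* among them. The chemokine list had 1, 2, 7 and 5 called members with each library left out in the same order.

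Beyond the interferon response, several genes were nearly silent in KO 38 and high in KO 28. *CHST3*, a chondroitin sulfotransferase gene, was at 669.9 and 628 in KO 28 and 0 and 0 in KO 38, and the WT libraries lay between at 59.8 to 108. KO 28 was at least 193-fold higher. The folate enzyme gene *ALDH1L1* was at 1066 and 1013 in KO 28 and 2.85 and 2.59 in KO 38 and the elastin and collagen cross-linking oxidase gene *LOXL1* at 1143 and 923 in KO 28 and 1.90 and 0 in KO 38. The WT range of *LOXL1*, 892 to 1114, held the value of KO 28B, and KO 28A was just above it, so that KO 38 was the clone apart. *MTUS2* was 435-fold and the gap junction gene *GJA5* 337-fold (counting interval 115 to 1636) higher in KO 28. *CLEC3A*, a lectin gene, was at 1323 and 1415 in KO 28 and 3.79 and 7.78 in KO 38, with 91.9 to 9487 in WT libraries. *LOXL1*, *ALDH1L1* and *MTUS2* have annotated antisense transcripts within their spans, whose reads cannot be told apart from theirs.

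In the other direction, *FOXA2* led the genes higher in KO 38. It encodes a pioneer transcription factor of gut endoderm and was at 0 and 0 in KO 28 and 1057 and 927 in KO 38, at least 333-fold higher in KO 38, with 0 to 111 in WT libraries. The transcription factor gene *DACH1* was at 1.01 and 0.978 in KO 28 and 1304 and 1094 in KO 38, and WT libraries held at most 1.01. *PGM5*, a phosphoglucomutase-like gene, was at 0 and 0.978 in KO 28 and 888 and 1169 in KO 38, and the growth factor-binding protein gene *IGFBP7* was at 2.01 and 0 in KO 28 and 813 and 1556 in KO 38. KO 38 was thus the only 1 of the 4 HT29 clones with more than 3.04 of *PGM5* or 2.01 of *IGFBP7*. The chemokine receptor gene *CXCR4* was at 4.02 and 0 in KO 28 and 1080.4 and 1389 in KO 38 (log2 difference 9.10, standard error 0.82, adjusted p = 0.0107), with at most 2.03 in WT libraries. *GABRP*, a subunit of the GABA-A receptor, was at 17.1 and 13.7 in KO 28 and 3295 and 4543 in KO 38 (log2 difference 7.89, standard error 0.29, adjusted p = 0.00309), and the synaptotagmin gene *SYT13* was at 19.1 and 15.7 in KO 28 and 3878 and 2964 in KO 38 (log2 difference 7.53, standard error 0.28, adjusted p = 0.00309). The adaptor gene *GRB10* and the formin gene *FMNL2* were 179.7-fold and 393-fold higher in KO 38. The fit without KO 38B took its spread from the close rounds of KO 28 alone, so that calls kept there add no support for these genes.

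Since both clones lack β-CATENIN, its target genes were compared next. In the WNT pathway, β-CATENIN binds TCF/LEF factors to raise transcription of targets that include the pathway's own inhibitors. Of 17 WNT target and feedback genes tested, 4 were higher in KO 38 and 1 in KO 28 (1, 1, 8 and 8 called in all with 1 library left out), and the median log2 difference was 0.14. *AXIN2*, a scaffold of the complex that destroys β-CATENIN, was at 15.1 and 22.5 in KO 28 and 158 and 119 in KO 38 (log2 difference 2.83, standard error 0.39, adjusted p = 0.0267). *LGR5*, a receptor that marks intestinal stem cells, was at 8.05 and 16.6 in KO 28 and 166 and 149 in KO 38 (log2 difference 3.65, standard error 0.45, adjusted p = 0.0215). Both KO clones were below the WT range of 590.0 to 779 for *AXIN2* and of 769 to 1151 for *LGR5*, but KO 28 lay further below it. The telomerase gene *TERT* was at 3.02 and 1.96 in KO 28 and 35.1 and 53.2 in KO 38, so that KO 38 reached the WT range of 5.01 to 48.0 or passed it. The secreted WNT inhibitor gene *DKK1* was at 2727 and 2204 in KO 28 and 6904 and 7818 in KO 38 (log2 difference 1.58, standard error 0.22, adjusted p = 0.0285), above the WT range in both clones. The nuclear receptor gene *NR2F1* was the target higher in KO 28, at 419 and 379.7 in KO 28 and 54.1 and 72.6 in KO 38 (log2 difference 2.65, standard error 0.29, adjusted p = 0.0154), below the WT range in both clones. *MYC* was at 6123 and 6094 in KO 28 and 8519.8 and 5046 in KO 38 and *RNF43*, a ubiquitin ligase gene that removes WNT receptors, was at 3089 and 3518 in KO 28 and 6346 and 3641 in KO 38, and both were not called (adjusted p = 0.856 and 0.365). *LGR5* overlaps *TSPAN8* on the other strand. Of the 17 genes tested, 2 reached the limit for testing in KO 38 alone, *TERT* among them, and 1 in KO 28 alone.

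Some genes that set both KO clones apart from the WT libraries were not called between the KO clones. *WNT11*, a WNT ligand gene, was at 5.03 and 3.91 in KO 28 and 11.4 and 16.9 in KO 38 (adjusted p = 0.203). It was called, higher in KO 38, when all 8 HT29 libraries shared one spread (adjusted p = 0.0180). *TRABD2A*, a protease gene that inactivates WNT ligands, was at 32.2 and 24.5 in KO 28 and 22.8 and 27.2 in KO 38 (adjusted p = 0.815). *CST4*, a salivary-type cystatin gene, was high in both clones, at 1565 and 869 in KO 28 and 1344 and 2102 in KO 38 (adjusted p = 0.456). In contrast, *REG4*, a secreted lectin gene of the gut epithelium, was above every WT library in both clones but much further so in KO 38, at 471 and 378 in KO 28 and 36222 and 36898 in KO 38 (log2 difference 6.43, standard error 0.22, adjusted p = 0.00309).

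Intestinal epithelium holds absorptive and secretory cells, and markers of both kinds differed between the clones. Goblet cells secrete mucus and trefoil peptides, and *ATOH1* is the transcription factor that sets the secretory lineage. Of 20 goblet and secretory genes tested, 6 were higher in KO 38 and none in KO 28 (5, 7, 12 and 10 called with 1 library left out). Another 4 listed genes were too low to test. Of the 20, 5 reached the limit in KO 38 alone and so had to be higher there, the called *ATOH1* and *TFF3* among them. With KO 38B left out, 6 were higher in KO 38 and 4 in KO 28, and 10 of the 20 had a positive sign. Its median log2 difference was 0.07. *AGR3*, a protein disulfide isomerase gene, was at 48.3 and 16.6 in KO 28 and 1013 and 2214 in KO 38 (log2 difference 5.67, standard error 0.65, adjusted p = 0.0172). The mucus protein gene *FCGBP* was at 66.4 and 47.0 in KO 28 and 843 and 648 in KO 38 (log2 difference 3.70, standard error 0.31, adjusted p = 0.00967), and the trefoil factor gene *TFF3* was at 8.05 and 2.94 in KO 28 and 129 and 214 in KO 38. *ATOH1* was at 0 and 0 in KO 28 and 46.5 and 57.0 in KO 38 and 0 in every WT library, and KO 38 was at least 17.4-fold higher. *KLF4*, a factor of goblet cell maturation, was 5.59-fold higher in KO 38. By contrast, the most abundant gene of the list, *AGR2*, was at 23108 and 16907 in KO 28 and 13361 and 23166 in KO 38 (adjusted p = 0.794), and the gel-forming mucin gene *MUC5AC* was at 5099 and 6067 in KO 28 and 11341 and 5379 in KO 38 (adjusted p = 0.490).

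Absorptive markers were called in both directions. Of 12 tested among 30 listed, 3 were higher in KO 28 and 2 in KO 38 (2, 2, 9 and 5 called with 1 library left out). Of the 12, 10 had the lower mean log2 value in KO 38 and 2 the higher, and 2 reached the limit for testing in KO 28 alone, *MYO1A* among them. *VIL1*, which encodes villin, an actin bundler of the brush border, was at 6740.0 and 6316 in KO 28 and 1812 and 1431 in KO 38 (log2 difference 2.02, standard error 0.22, adjusted p = 0.0158). The gut hormone gene *GUCA2A* was at 121 and 89.0 in KO 28 and 17.1 and 15.6 in KO 38 (log2 difference 2.60, standard error 0.36, adjusted p = 0.0273), and the brush border myosin gene *MYO1A*, at 0 in every WT library, was at 49.3 and 34.2 in KO 28 and 2.85 and 1.30 in KO 38. On the other hand, *FABP1*, a fatty acid-binding protein gene, was at 18.1 and 15.7 in KO 28 and 1589.8 and 2938 in KO 38 (log2 difference 6.92, standard error 0.38, adjusted p = 0.00632). The dipeptidase gene *DPP4* was 11.6-fold higher in KO 38. *KRT20*, a keratin of differentiated gut epithelium, was at 21316 and 17208 in KO 28 and 18008 and 9565 in KO 38 (adjusted p = 0.420).

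Of 15 gut identity transcription factors tested, 3 were higher in KO 38 (1, 2, 6 and 5 called with 1 library left out), and the median log2 difference was −0.12. Among them, besides *FOXA2*, was *GATA6*, a factor of gut endoderm, at 356 and 335 in KO 28 and 1468 and 1479 in KO 38 (log2 difference 2.09, standard error 0.21, adjusted p = 0.0130). Of the 15, 2 reached the limit for testing in KO 38 alone, *FOXA2* among them, and 1 in KO 28 alone. The median of these 15 was 0.38 in round A and −0.35 in round B. *KLF5*, the most abundant member, was at 19323 and 20096 in KO 28 and 14540.1 and 13883 in KO 38 (adjusted p = 0.273). Of 13 intestinal stem cell genes tested, 3 were higher in KO 38, namely *LGR5*, *AXIN2* and *PROM1*, which was at 741 and 724 in KO 28 and 2368 and 2253 in KO 38 (log2 difference 1.66, standard error 0.21, adjusted p = 0.0198). With a library left out, the stem cell list had 1, 1, 3 and 3 called members in the same order. *CD44*, an adhesion receptor gene of the same list, was at 5108 and 4649 in KO 28 and 9899 and 9585 in KO 38, and its adjusted p was 0.0654.

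**Figure D1:**
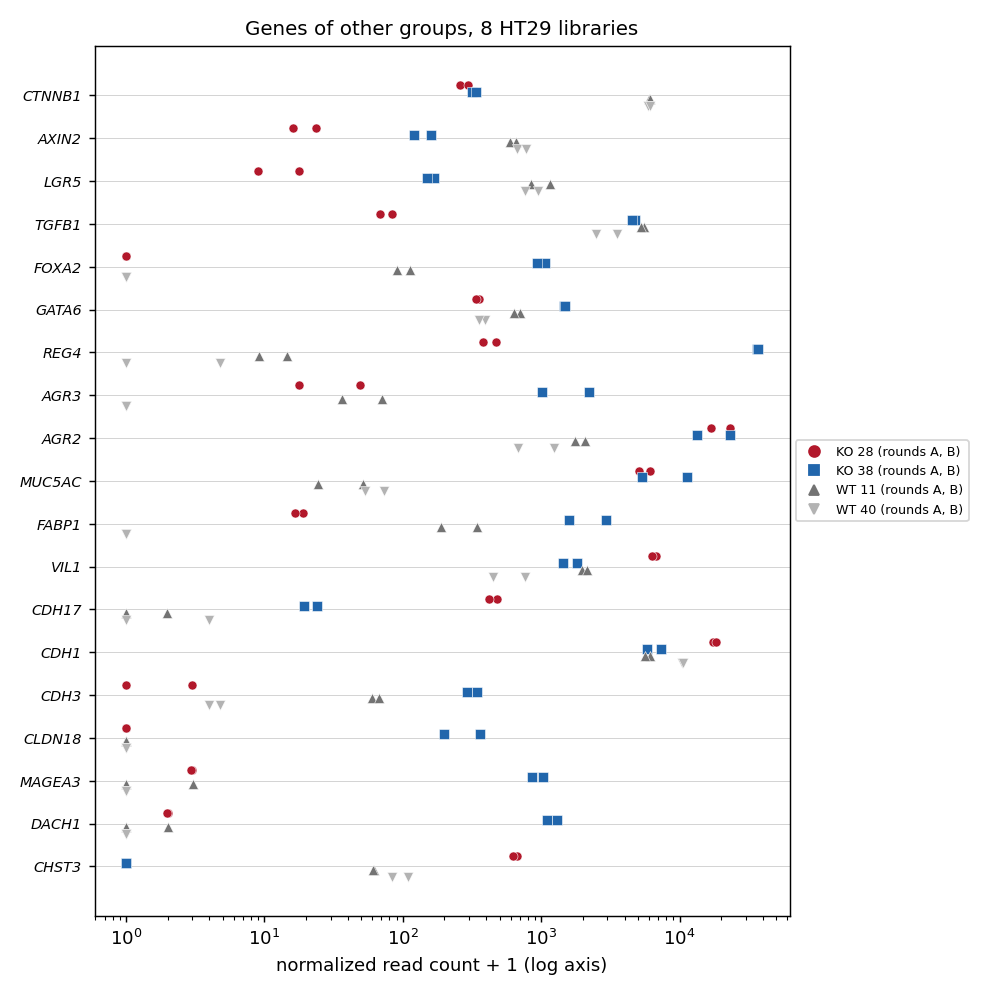
Normalized counts plus 1 on a log axis for genes of other groups in the 8 HT29 libraries, with 1 symbol per library (red circles KO 28, blue squares KO 38, grey triangles the WT clones). CTNNB1 is low in all 4 KO libraries, AXIN2 and LGR5 are lowest in KO 28, and DACH1 and MAGEA3 are high in the KO 38 libraries alone.

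Several genes of cell adhesion were called. *CDH1*, which encodes E-cadherin, the adhesion receptor to whose tail β-CATENIN binds, was at 17544 and 18417 in KO 28 and 7339 and 5859 in KO 38 (log2 difference 1.45, standard error 0.23, adjusted p = 0.0377). *CDH17*, the liver-intestine cadherin gene, was also higher in KO 28, at 475 and 421 in KO 28 and 22.8 and 18.2 in KO 38 (log2 difference 4.39, standard error 0.30, adjusted p = 0.00670). *CDH3*, the P-cadherin gene, was at 2.01 and 0 in KO 28 and 345 and 289 in KO 38, and KO 38 was 324-fold (counting interval 89.3 to 2683) higher. These were the 3 called members of 13 catenins and cadherins (2, 2, 3 and 3 with 1 library left out), and the list median was −0.43. That median was 0.05 in round A and −0.77 in round B. Of the 13 genes, 1 reached the limit for testing in KO 38 alone, namely *CDH3*, and so had to be higher there. *JUP*, which encodes plakoglobin, the closest relative of β-CATENIN, was at 20019.8 and 19066 in KO 28 and 19370.1 and 18620.1 in KO 38 (adjusted p = 0.923). In tight junctions, the gastric claudin gene *CLDN18*, at 0 in every WT library, was at 0 and 0 in KO 28 and 358 and 198 in KO 38, at least 93.4-fold higher in KO 38. It was the 1 tested gene of its list that reached the limit for testing in KO 38 alone, and so had to be higher there. *CLDN2*, which forms a cation pore, was at 1065 and 897 in KO 28 and 8037 and 4862 in KO 38 (log2 difference 2.68, standard error 0.32, adjusted p = 0.0184). They were the called members of 17 claudin and tight junction genes (2, 1, 6 and 2), whose median was −0.13. *CEACAM1*, called among 6 CEACAM genes (2 called without KO 38B), was 5.85-fold higher in KO 28.

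Cancer-testis antigens are genes that are silent outside the germ line and are switched on in many tumours. Of 23 listed, 13 were too low to test, and 5 of these were at 0 in all 4 libraries. Of the 10 tested, 6 reached the limit in KO 38 alone and so had to be higher there. The 7 genes called higher in KO 38 and none in KO 28 (6, 6, 10 and 8 with 1 library left out) are therefore given as single genes, with no median over the list. The 23 genes summed to 90.5 and 77.3 in KO 28, to 2545 and 6188 in KO 38 and to at most 21.7 in WT libraries. *MAGEA3* was at 2.01 and 1.96 in KO 28 and 854 and 1032 in KO 38, 468-fold (counting interval 183 to 1721) higher in KO 38, and at most 2.03 in WT libraries. *PAGE1* was at 17.1 and 7.83 in KO 28 and 1093 and 3953 in KO 38 (log2 difference 7.36, standard error 0.73, adjusted p = 0.0131), and *MAGEA6* was at 0 and 8.81 in KO 28 and 222 and 421 in KO 38 (log2 difference 6.61, standard error 1.16, adjusted p = 0.0485). *PAGE5*, *SSX1*, *MAGEA1* and *GAGE2A* were the other called members, and their KO 38 values ran from 22.8 to 373. The uncalled *GAGE1*, *MAGEA12* and *MAGEC2* had adjusted p = 0.0718, 0.128 and 0.175. All 10 lie on the X chromosome, and the GAGE genes, like *MAGEA3* and *MAGEA6*, are near-identical copies that can share reads, so that the members are not independent.

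Among growth factor pathways, *TGFB1* stood out. It encodes the cytokine TGF-β1 and was at 67.4 and 82.2 in KO 28 and 4755 and 4533 in KO 38 (log2 difference 5.94, standard error 0.23, adjusted p = 0.00309), with 2503 to 5567 in WT libraries. KO 38 was thus within the WT range and KO 28 far below it. The gene overlaps others on the opposite strand. The 17 TGF-β and BMP genes tested had medians of 0.08 in round A and 0.03 in round B. Of these, 1 reached the limit for testing in KO 28 alone and 1 in KO 38 alone. The pseudoreceptor gene *BAMBI*, the transcriptional inhibitor gene *ID2* and the receptor gene *TGFBR1* were 39.0-fold, 3.60-fold and 2.57-fold higher in KO 38. They made 4 called of 17 TGF-β and BMP genes (2, 2, 8 and 5 with 1 library left out), but the list median was −0.20. Of 13 Notch genes, the ligand genes *JAG1* and *DLL4* were higher in KO 38, with 251 and 256 in KO 28 and 3937 and 1879.9 in KO 38 for *JAG1* (log2 difference 3.42, standard error 0.40, adjusted p = 0.0184), and with a library left out 1, 1, 4 and 2 members were called in the same order. The EGF receptor ligand genes *AREG* and *HBEGF* were 2.81-fold and 2.66-fold higher in KO 38, the called members of 9 genes, and neither was called with KO 28A or KO 28B left out. The cell cycle kinase gene *CDK6* was at 420.4 and 507 in KO 28 and 3269.6 and 2165 in KO 38 (log2 difference 2.52, standard error 0.29, adjusted p = 0.0180), while the cyclin gene *CCND3* was 2.20-fold higher in KO 28.

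Of 16 genes of matrix proteases and their inhibitors, 4 were higher in each clone (4, 2, 11 and 11 called with 1 library left out), and the median was −0.01. The median of this protease list was −0.50 in round A and 0.18 in round B, and 1 of its genes reached the limit for testing in KO 38 alone. The protease inhibitor gene *SERPINE2* and the urokinase gene *PLAU* were 67.1-fold and 11.2-fold higher in KO 38, while the kallikrein gene *KLK6* was 3.70-fold higher in KO 28. The metalloprotease gene *MMP28* was higher in KO 28 too (log2 difference 3.52, standard error 0.36, adjusted p = 0.0144). *MMP7*, or matrilysin, a protease of the gut epithelium, was at 618 and 292 in KO 28 and 1986 and 2404 in KO 38 (log2 difference 2.36, standard error 0.41, adjusted p = 0.0485). Xenobiotic metabolism had 11 called of 29, with 7 higher in KO 38 and 4 in KO 28 (7, 7, 18 and 14 called in all with libraries left out in the same order), and a median of 0.43. The alcohol dehydrogenase gene *ADH1C* was at 2.01 and 2.94 in KO 28 and 330.1 and 616 in KO 38, and KO 38 was 182-fold (counting interval 77.6 to 561) higher. It was 1 of 3 tested members of this list that reached the limit for testing in KO 38 alone. The aldo-keto reductase gene *AKR1C1* was at 599 and 629 in KO 28 and 5027 and 7306 in KO 38 (log2 difference 3.30, standard error 0.26, adjusted p = 0.00902) and the aldehyde dehydrogenase gene *ALDH3A1* was 19.7-fold higher in KO 38. The carboxylesterase gene *CES1* and the cytochrome gene *CYP4F12* were 13.9-fold and 19.9-fold higher in KO 28. The export pump gene *ABCC2* was at 0 and 0 in KO 28 and 126 and 75.2 in KO 38, and the cholesterol transporter gene *ABCG1* was at 661 and 378 in KO 28 and 7.59 and 6.48 in KO 38 (log2 difference 5.96, standard error 0.40, adjusted p = 0.00690). They were the called members of 10 ABC transporters tested (20%, beside 5.71% of all genes). Each reached the limit for testing only in the clone where it was higher, so that its direction was given by the filter.

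Of 24 HOX genes, which carry positional identity, 3 were higher in KO 38, namely *HOXC4*, *HOXC13* and *HOXB4*, and 2 in KO 28, *HOXA2* among them (1, 1, 10 and 6 called with 1 library left out), and the median was 0.08. *HOXC4* was at 1.01 and 1.96 in KO 28 and 177 and 201 in KO 38. It was 1 of 2 tested HOX genes that reached the limit for testing in KO 38 alone. The HOX median was −0.04 in round A and 0.29 in round B. The next list held genes of YAP, TEAD and VGLL factors beside YAP and TEAD targets. Of its 18 tested genes, *CRIM1* was 61.3-fold higher in KO 38, and *VGLL1*, *NT5E* and *TEAD2* were higher in KO 28. Fewer were called without KO 28A or KO 28B, and more without KO 38A or KO 38B. The list median was −0.62, with −0.10 in round A and −1.24 in round B. In prostaglandin synthesis, *PTGES*, the prostaglandin E synthase gene, was 32.9-fold higher in KO 28, and the cyclooxygenase gene *PTGS1* was 4.18-fold higher in KO 28. They were the called members of 8 (1, 1, 4 and 3). The lipid droplet coat gene *PLIN2* was 11.1-fold higher in KO 28, and it was the called member of 15 lipid genes (1, 1, 5 and 3), a share of 6.67% near the 5.71% of all genes. The remaining lists with a call held 1 called gene each, namely *MUC16*, *LAMB1*, *TNFAIP2*, *ETV5* and the histone gene *H2BC12*, and the call of each was lost without KO 28A and without KO 28B. They were called among 9 mucins, 19 laminins and integrins, 16 NF-kB genes, 24 MAPK feedback genes and 10 histone genes, and the shares of the laminin, NF-kB and MAPK lists lay near 5.71%. Without KO 38B the called members were 4, 4, 2, 7 and 2 in that order, and all 7 of the MAPK list were higher in KO 38.

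In 13 of the 43 lists no tested gene was called by limma. They included the genes of DNA replication (30 tested) and mitosis (25), p53 targets (20), glycolysis and hypoxia response (29), nuclear genes of oxidative phosphorylation (29), cholesterol synthesis (23) and the unfolded protein response (21). The median of the replication list was 0.01 (−0.03 in round A and 0.06 in round B) and that of the mitosis list −0.40 (−0.46 and −0.38). That of the oxidative phosphorylation list was 0.25, but the rounds had opposite signs, with −0.33 in round A and 0.88 in round B. The other lists with no call were keratins, epithelial-mesenchymal transition genes, cystatins, S100 genes, MHC class II genes and metallothioneins. Without KO 38B, with the spread taken from KO 28 alone, genes called higher in KO 28 were 1 of mitosis, 2 of glycolysis or hypoxia, 3 keratins, 1 S100 gene, 1 epithelial-mesenchymal transition gene and 3 of 4 metallothioneins. Genes called higher in KO 38 in that fit were 1 p53 target, 1 gene of the unfolded protein response and 1 epithelial-mesenchymal transition gene. The other lists named here gained none there. These lists show no call at the spread of these 4 libraries, which does not show that the clones were alike in them.

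Markers of other cell types were checked as well. The summed level of 10 fibroblast markers was 119 and 151 in KO 28 and 1213 and 1177 in KO 38. Nearly all of the latter was *LUM*, a proteoglycan gene, at 82.5 and 108 in KO 28 and 1125 and 1111 in KO 38 (log2 difference 3.55, standard error 0.26, adjusted p = 0.00721), which was at 0 in every WT library. The other tested marker, *COL1A1*, was at 26.2 and 27.4 in KO 28 and 85.4 and 55.7 in KO 38 (adjusted p = 0.133) and was called without KO 38B, and 8 of the 10 fibroblast markers were under 10 in all 4 libraries. Of the 10 neural, 12 immune and 9 matched endothelial markers, 2, 3 and 2 could be tested and none was called with all libraries, while 1 immune marker was called with KO 38B left out. The summed endothelial markers were at 1417 and 1313 in KO 28 and 2794 and 2719 in KO 38. At 0 in all 4 libraries were 2 fibroblast, 4 endothelial, 4 immune and 5 neural markers. The part of these genes in the other results was not tested.

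Finally, the differences were laid out along the chromosomes. The median log2 difference, KO 38 minus KO 28, was 0.35 for the 930 tested genes of chromosome 17 (0.40 in round A and 0.32 in round B), where 67.7% of genes were higher in KO 38. It was 0.25 on chromosome 11 (0.26 and 0.30). Medians were negative on chromosome 15 with −0.40 (−0.37 and −0.43), on chromosome 7 with −0.32 (−0.36 and −0.25), on chromosome 19 with −0.22 (−0.28 and −0.14) and on chromosome 13 with −0.19 (−0.23 and −0.23). The other 17 chromosomes lay between −0.11 and 0.08. Both rounds gave the same sign on each of these 6 chromosomes. A median over a chromosome can hide parts of it, so medians were also taken over stretches of 20 Mb with at least 20 genes of mean 100 or more. On chromosome 2, whose median was 0.08, the stretches from 0 to 100 Mb were at 0.32 to 0.54 and those from 180 to 240 Mb at −0.45 to −0.70, with both rounds on the same side. On chromosome 13 the stretch from 20 to 40 Mb was at −0.85 (60 genes), and the other stretches were at −0.13 to 0.01. On chromosome 19 the stretch from 0 to 20 Mb was at −0.01 and that from 40 to 60 Mb at −0.43. Relative to the mean of the 4 HT29 clones, KO 38 was at 0.32 on chromosome 17 while KO 28, WT 11 and WT 40 were at −0.04, −0.13 and −0.14. On chromosome 15, KO 38 was at −0.25 and KO 28, WT 11 and WT 40 were at 0.14, 0.06 and 0.09. The shifts were small beside those of called genes. Of the 930 genes on chromosome 17, 27 were called higher in KO 38 and 12 higher in KO 28, and of the 508 on chromosome 15, 8 and 15. Among all tested genes, 2.91% were called higher in KO 38 and 2.8% higher in KO 28. Calls in the direction of each median were thus near the share of all genes, and those in the other direction were fewer. Among abundant genes there, *ACTG1*, a cytoplasmic actin gene on chromosome 17, was at 106600.0 and 95715 in KO 28 and 120786 and 128349 in KO 38, and *PKM*, the pyruvate kinase gene on chromosome 15, was at 112564 and 98828 in KO 28 and 55750.3 and 53420.3 in KO 38, and neither was called (adjusted p = 0.539 and 0.129). The number of gene copies was not measured here.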

How the data were processed

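RNA of HT29 clones KO 28, KO 38, WT 11 and WT 40 was sequenced in rounds A and B from unstranded poly(A) libraries. Per the labels, the authors aligned reads with STAR 2.7.5b to GRCh37, counted them with featureCounts 2.0.1 and normalized with DESeq2. The authors deposited signal values, in which the count of a gene has been scaled by the size factor of its library. Their tables of KO against WT comparisons were not used.

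Genes reaching 10 in 2 or more of the 4 libraries were tested with limma 3.58.1 (trend and robust) on log2 of the value plus 1, with 2 libraries per clone and no round term. Symbols came from GENCODE 44 on GRCh37 and covered 95.8% of identifiers. Whole reads were recovered for 100% of values (tolerance 0.001) and tested with edgeR 4.0.16 and DESeq2 1.42.0 as alternatives. The fits were tested on simulated data. Named genes were CTNNB1, REG4, CST4, WNT11, TRABD2A, the 10 per direction with the largest smaller-of-both-rounds difference among called genes with a mean of at least 500, and, within lists, chromosomes and rounds, those leading by difference or mean. Further interferon-pathway genes, KLF4, MAGEA1 and GAGE2A were chosen after their values were seen. R 4.3.3, Python 3.11.15 and RefSeq promoters were used. Some genes under this rule are not reported here. Members, lists and named genes were chosen with earlier results of these data known.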

Additional observations from a re-analysis of the deposited data

How the results depend on the processing

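With 2 libraries per clone, the number of genes called between KO 28 and KO 38 moved with the estimate of spread. It was 881 as reported, 825 and 832 in edgeR with TMM and RLE normalization, 1381 in DESeq2, 1622 when all 8 HT29 libraries shared one spread and 443 when at least 10 was required in every library, which removes genes silent in 1 clone. With each library left out in turn it ran from 365 to 4652, the spread then coming from the rounds of 1 clone, and for WT 11 against WT 40 from 1294 to 1590. Requiring at least 10 in every library gave 873 of 1436 genes in the WT comparison. The labels do not tie the rounds of different clones together, and the differences between rounds correlated across genes at −0.27 for KO 28 with KO 38 and at 0.21 for WT 11 with WT 40. The fit therefore held no round term, but the rule for calls did set round A against round A and round B against round B. Without that rule, 881 genes were called between the KO clones and 1772 between the WT clones. With the round as a replicate block, 1365 genes were called between the KO clones and 1484 between the WT clones. Crossed rounds as a replicate block, added after seeing the data, gave 1610. The pseudocounts of 0.1 and 5, no filter on low values and the removal of the length and GC trend gave 679, 933, 928 and 1211. Of 104 named called genes, 62 and 63 remained called without KO 28A and KO 28B and all 104 without KO 38A and without KO 38B, and no alternative turned a direction. Leaving 1 library out could not turn a direction, since the libraries of the clones did not overlap in any of the 881 called genes. Requiring at least 10 in every library kept the calls of 47 of the 104 genes. There 12 lost the call and the rest fell below the limit. The pseudocount of 0.1 kept 88. WNT11 was called when all 8 libraries shared one spread.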
